A study of Mus musculus with 16 samples.

Results

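A set of 8 genes of red blood cells and of the erythropoietin pathway was followed in mouse tail tendon fascicles, the collagen-rich strands that run along the tail. They were chosen by name: the adult globins Hba-a1, Hba-a2, Hbb-bs and Hbb-bt, the erythroid genes Alas2 and Slc4a1, the hormone gene Epo and its receptor gene Epor. All 8 were among the 25719 genes in the deposited tables, and 7 of them passed the filter on low counts and were tested. RNA of whole fascicles was sequenced in 16 libraries. In 8 of them, called knockout here, the genotype was ScxCre;Vhlf/f, in which Cre recombinase driven by the tendon gene Scx deletes floxed Vhl in cells of the Scx lineage. The other 8 were wild type, with no further allele given. Age, sex, strain and whether a library holds 1 animal or several are not given in the sources used here. The p-values therefore measure only the spread between these libraries, which may be technical.

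Haemoglobin, the oxygen carrier of red cells, pairs alpha chains (Hba-a1, Hba-a2) with beta chains (Hbb-bs, Hbb-bt) around haem, and red cells that have lost their nucleus still carry globin transcripts. Alas2 makes the first precursor of haem in erythroid cells, and Slc4a1 is band 3, the anion exchanger of the red cell membrane. Erythropoietin (Epo) binds its receptor (Epor) on erythroid precursors and signals through JAK2 and STAT5. Vhl marks the hypoxia-inducible factors (HIF) for degradation, and Epo of kidney and liver is a classical target of HIF2α.

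Vhl itself was measured at 9.35 ± 1.25 counts scaled to a common library size (CPM) in knockout libraries and 20.5 ± 3.69 CPM in wild type libraries (SD, n = 8), with no overlap between the groups. The fitted log2 difference was -1.13 (SE 0.113, edgeR quasi-likelihood F test, Benjamini-Hochberg adjusted p = 9.64e-08). Total counts ran from 10488355 to 18753254 per library, and 3 counts, taken as the floor of detection, corresponded to between 0.145 and 0.336 CPM. The genotypes differed in many genes: 7151 of 14803 tested genes (48.3%) passed an adjusted p of 0.05, 3792 higher (25.6%) and 3359 lower (22.7%) in knockout libraries. On total counts without a scaling factor, the median log2 fold change over tested genes was 0.32 in place of 0.02 and 85.4% of the calls were higher, against 53.0% on the scale used here, trimmed mean of M-values (TMM). Tendon markers were abundant in every library, with summed levels of 83397 to 184889 CPM over 10 genes in knockout libraries and 136870 to 386090 CPM in wild type libraries. Of these 10 genes, 1 was higher and 6 lower in knockout libraries, with a median log2 fold change of -0.60, and the part of this difference in the globin results was not tested.

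The globin genes come in near-identical pairs, which bears on how counts divide within a pair. In GENCODE M21 (GRCm38) the coding sequences of Hba-a1 and Hba-a2 (429 bases each) differed at a single position, C381T from Hba-a1 to Hba-a2. Those of Hbb-bs and Hbb-bt (444 bases each) also differed at 1 position, C417T from Hbb-bs to Hbb-bt. Positions are counted from 1 at the A of the start codon, and each pair was 99.8% identical. The stretches below, all in exon 3 of 3, show the differing base in capitals with 20 bases on either side, at chr11:32284323-32284363 (+), chr11:32297140-32297180 (+), chr7:103826672-103826712 (-) and chr7:103812663-103812703 (-) in the order listed.
Hba-a1: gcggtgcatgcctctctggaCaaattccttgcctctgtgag
Hba-a2: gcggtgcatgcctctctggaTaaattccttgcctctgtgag
Hbb-bs: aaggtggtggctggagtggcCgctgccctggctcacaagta
Hbb-bt: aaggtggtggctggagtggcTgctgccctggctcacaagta

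Outside the coding sequence the annotated transcripts of a pair differ in length. Annotated 5′ untranslated regions were 196 bases in Hba-a1 and 35 in Hba-a2, and 53 in Hbb-bs and 127 in Hbb-bt. The sequences of these regions were not compared, so the lengths do not show that reads of the copies can be told apart. How reads that match both copies were assigned is not given in the sources used here, so the counts of single globin genes are uncertain while the sum over a pair is less so.

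Promoters of 7 of the 8 genes were found in the RefSeq table (GRCm38.p6), Slc4a1 being the other. Over the 250 bases before the start site, Hba-a1 and Hba-a2 shared an identical run of 247 bases, whereas Hbb-bs and Hbb-bt were 73.3% identical with a longest shared run of 14. Words bound by GATA factors, the erythroid master regulators (AGATAA as well as TGATAA, or the forms AGATAG and also TGATAG, on either strand), were found in 6 of 7 members, all but Hbb-bt, against 26.5% of 32851 promoters. The core of the HIF site (ACGTG and likewise GCGTG, on either strand) was found in 3 of 7, Hba-a1, Hba-a2 and Epo, against 38.6% of promoters. CACCC, the word bound by KLF1, was found in 7 of 7, against 52.0%. A match is a description of letters, not of binding. The 60-base windows below hold the GATA words, in capitals, on the strand of each gene, and are outside annotated exons. In the order listed, the words begin 183, 186, 210, 86, 191 and 54 bases before the start site, and the windows lie at chr11:32283451-32283510 (+), chr11:32296279-32296338 (+), chr7:103828106-103828165 (-), chrX:150547304-150547363 (+), chr5:137485975-137486034 (-) and chr9:21963598-21963657 (-).
Hba-a1: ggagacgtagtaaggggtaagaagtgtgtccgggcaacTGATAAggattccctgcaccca
Hba-a2: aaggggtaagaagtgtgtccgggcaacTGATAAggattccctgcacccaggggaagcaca
Hbb-bs: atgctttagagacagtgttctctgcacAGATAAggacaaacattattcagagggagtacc
Alas2: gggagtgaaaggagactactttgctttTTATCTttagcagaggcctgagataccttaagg
Epo: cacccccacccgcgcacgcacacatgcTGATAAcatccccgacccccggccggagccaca
Epor: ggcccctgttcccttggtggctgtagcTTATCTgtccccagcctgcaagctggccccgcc

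All 4 globin genes were higher in every knockout library than in every wild type library, by 11.8-fold to 13.7-fold in the fit. Alas2 rose 2.2-fold, and Slc4a1, almost at 0 in wild type libraries, was counted in every knockout library. Epo and Epor did not pass the threshold. Of the 7 tested members, 5 were past the threshold and higher in knockout libraries, where 25.6% of all tested genes were, and 4 did not overlap between the groups, where 10.8% of all tested genes lay wholly higher and 8.61% wholly lower in knockout libraries. The filter asks for a minimum level in 8 libraries, so a gene can pass it through 1 genotype alone. Hbb-bt, low in some wild type libraries, needed the knockout libraries to pass it. These counts over 7 chosen genes carry no test. In bulk tissue, more cells of a type and more RNA per cell cannot be told apart.

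Hbb-bs, the more abundant beta chain, was measured at 33.8 CPM in the lowest, 134 CPM at the median and 295 CPM in the highest knockout library. Wild type libraries had their lowest, median and highest values at 4.06, 13.6 and 24.1 CPM. Knockout libraries 2, 5 and 6 were high, at 258, 285 and 295 CPM, and library 7 was low, yet every knockout library lay above every wild type library. The means were 161 ± 107 and 13.0 ± 6.97 CPM (SD, n = 8), a log2 fold change of 3.63 (SE 0.529, edgeR quasi-likelihood F test, Benjamini-Hochberg adjusted p = 4.18e-05).

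Hba-a1, the more abundant alpha chain, ranged from 25.3 through a median of 84.5 to 175 CPM in knockout libraries and from 3.03 through 7.93 to 13.6 CPM in wild type libraries. The same knockout libraries, 2, 5 and 6, were the highest, library 7 was again the lowest, and the groups did not overlap. The means were 95.2 ± 59.9 and 8.03 ± 3.89 CPM (SD, n = 8), a log2 fold change of 3.57 (SE 0.472, edgeR, adjusted p = 1.54e-05).

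The less abundant copies also rose. Hba-a2 ranged from 6.45 through a median of 27.9 to 59.6 CPM in knockout libraries and from 0.936 through 2.21 to 5.57 CPM in wild type libraries. The gap between the groups was narrow, from wild type library 6 at 5.57 to knockout library 7 at 6.45 CPM, and the log2 fold change was 3.65 (SE 0.50, edgeR, adjusted p = 2.06e-05). Hbb-bt ranged from 3.39 through 14.6 to 33.2 CPM in knockout libraries and from 0.448 through 1.14 to 2.28 CPM in wild type libraries, where single libraries held between 4 and 27 counts. Its groups did not overlap either, with a log2 fold change of 3.78 (SE 0.486, edgeR, adjusted p = 8.39e-06). Wild type libraries alone would not have carried Hbb-bt past the filter on low counts, so its p-value is to be read with that limit. Called genes with a log2 fold change of at least 3 in this direction made up 1.79% of all tested genes.

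**Figure D1:**
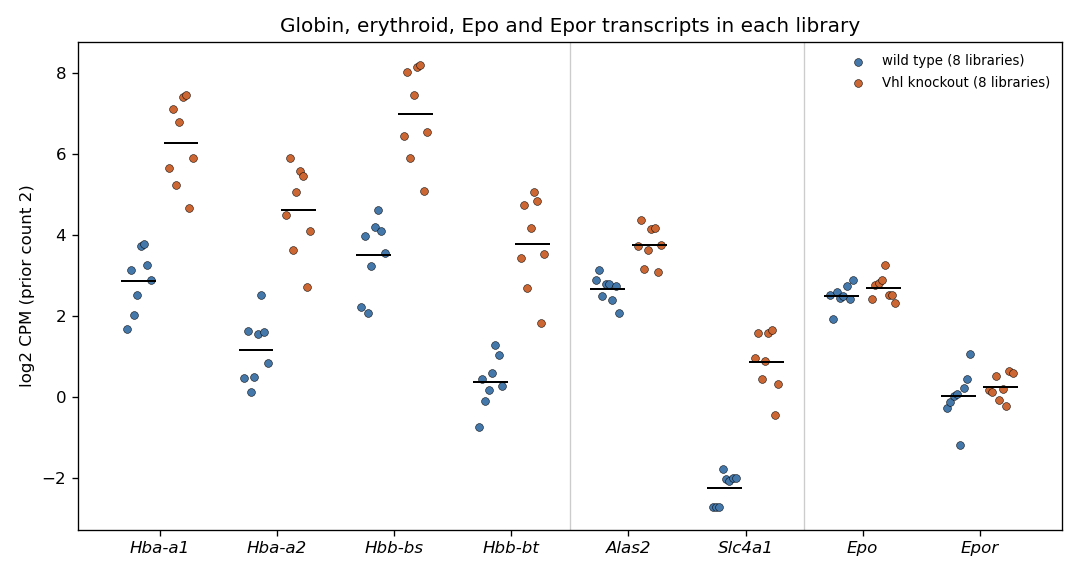
Level of each of the 8 genes in 8 wild type (blue) and 8 knockout (orange) libraries, in log2 CPM with a prior count of 2, with 1 point per library and a bar at the mean of each group. Knockout points lie wholly above wild type points for the 4 globins and Slc4a1, 7 of 8 do for Alas2, and the groups overlap for Epo and Epor.

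Globin transcripts were a very small share of the RNA in both genotypes. Together the 4 genes took 0.00762% (95% Wilson interval 0.00723 to 0.00802) of the counts of knockout library 7, the lowest, and 0.0632% (0.0620 to 0.0644) of library 6, the highest, with a median of 0.0292%. In wild type libraries the share ran from 0.00076% (0.000612 to 0.000943) in library 1 to 0.00376% (0.00345 to 0.00409) in library 6, with a median of 0.00222%. These intervals, and the floor of 3 counts, cover counting error only. Summed globin CPM spread 7.87-fold between the lowest and highest knockout library and 4.96-fold between wild type libraries, so the level varied widely within each genotype.

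The makeup of the globin counts differed little between genotypes. Alpha chains made up 40.3 to 46.1% of globin counts in knockout and 39.4 to 50.0% in wild type libraries. Per kilobase of annotated exon, the summed alpha level was 0.722 of the summed beta level at the median of the knockout (range 0.660 to 0.837) and 0.705 in wild type libraries (0.641 to 0.971), so the ranges overlapped. Hba-a1 took 69.1% (Wilson interval 66.0 to 72.0) to 80.0% (78.8 to 81.2) of alpha counts in knockout libraries, lowest in libraries 1 and 2 and highest in library 6. Among wild type libraries the share ran from 70.9% to 82.3%.

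Ratios between members within a library do not depend on its scaling, and 4 were compared between genotypes by a two-sided exact permutation test (12870 ways to assign libraries to genotypes), with adjustment over the 4. The log2 ratio of Hba-a2 to Hba-a1 was -1.66 ± 0.323 in knockout libraries and -1.78 ± 0.387 in wild type libraries (SD, n = 8), a difference of 0.11 (exact p = 0.530, adjusted p = 0.706). That of Hbb-bt to Hbb-bs was -3.21 ± 0.136 and -3.24 ± 0.428, a difference of 0.035 (exact p = 0.861, adjusted p = 0.861, n = 8). Neither difference exceeded the spread between libraries, and the sign of the second changed when wild type library 2 or 5 was left out (-0.022 and -0.030) or 1 in place of 0.5 was added to each count (-0.014).

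Alas2, the erythroid enzyme of haem synthesis, rose less than the globins. Its level ranged from 8.29 through a median of 13.2 to 20.5 CPM in knockout libraries and from 4.06 through 6.64 to 8.62 CPM in wild type libraries. Knockout library 7, at 8.29 CPM, lay below wild type library 2, and the other 7 lay above every wild type library. The means were 13.9 ± 4.37 and 6.32 ± 1.42 CPM (SD, n = 8), a log2 fold change of 1.14 (SE 0.188, edgeR quasi-likelihood F test, Benjamini-Hochberg adjusted p = 5.27e-05). Per 100 Hbb-bs counts, Alas2 had a median of 11.1 counts in knockout libraries (range 6.02 to 24.6) and 47.2 in wild type libraries (21.1 to 162). The log2 ratio was lower in knockout libraries by a difference of -2.40 (exact permutation test, n = 8, p = 3.11e-04, adjusted p = 0.00124), although the ranges overlapped. In the annotation, 311 of the 2403 exonic bases of Alas2 lie opposite exons of Apex2, a DNA repair gene, and 61 opposite Mir3620. Whether the counting used strand is not given, so part of the Alas2 count may come from these genes. Apex2 stood at 16.4 ± 2.35 CPM in knockout libraries and 14.8 ± 2.04 CPM in wild type libraries (log2 fold change 0.15, SE 0.0998, edgeR, adjusted p = 0.237).

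Slc4a1, the band 3 anion exchanger, was counted 12 to 59 times per knockout library and 0 to 2 times per wild type library. The levels ranged from 0.582 through a median of 1.73 to 2.99 CPM in knockout libraries, where libraries 6, 5 and 2 were again highest and library 7 lowest. All wild type libraries were at or below the floor, with 3 of them at 0 and a maximum of 0.139 CPM. Pooled over libraries, 231 counts stood against 6, a ratio of rates of 29.4 (95% exact interval 13.3 to 80.8, counting error only). The gene failed the filter on low counts, and no test across genes is given for it, since it could pass a weaker filter only through knockout libraries. Relative to Hbb-bs, Slc4a1 held 1.13 counts per 100 in the pooled knockout and 0.502 in the pooled wild type. The log2 ratio differed by 0.68 (exact permutation test, n = 8, p = 0.0718, adjusted p = 0.144), which does not pass, by 0.85 without wild type library 4 (adjusted p = 0.0395) and by 0.11 with 1 in place of 0.5 added to each count (adjusted p = 0.944).

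**Figure D2:**
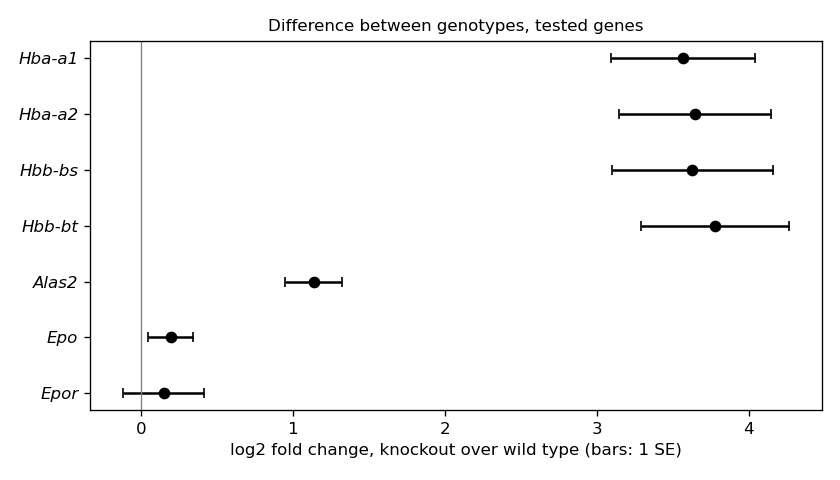
Fitted log2 fold change, knockout against wild type, with bars of 1 standard error for the 7 tested members. The 4 globins lie between 3.57 and 3.78, Alas2 at 1.14, and Epo and Epor at 0.20 and 0.15.

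Epo, the gene of the hormone, was detected in every library, from 4.84 through a median of 6.08 to 9.34 CPM in knockout libraries and from 3.63 through 5.54 to 7.24 CPM in wild type libraries. The ranges overlapped over most of their width, and only knockout library 5 lay above every wild type library. The means were 6.39 ± 1.47 and 5.59 ± 1.05 CPM (SD, n = 8), a log2 fold change of 0.20 (SE 0.148, edgeR quasi-likelihood F test, Benjamini-Hochberg adjusted p = 0.285). On total counts it was 0.495 (adjusted p = 0.00816), where the median of all tested genes was 0.32.

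The Epo count may not be all Epo. In GENCODE M21, 104 of its 855 exonic bases are shared, on the same strand, with Gnb2, a widely expressed G protein subunit that stood at 145 ± 11.9 CPM in knockout libraries and 131 ± 6.90 CPM in wild type libraries. Per 100 Gnb2 counts there were 4.45 Epo counts in the pooled knockout (3.58 to 5.49 over libraries) and 4.21 in the pooled wild type (2.85 to 5.40). Within knockout libraries, log2 Epo followed log2 Gnb2 (n = 8, Pearson r = 0.920, exact permutation p = 0.00273, adjusted p = 0.00982, and Spearman rho = 0.833, exact p = 0.0154, adjusted p = 0.0554). Without the 2 libraries farthest from the median, r was 0.765. The wild type r was 0.319 (exact p = 0.457, adjusted p = 0.686, n = 8) and rho 0.333 (exact p = 0.428, adjusted p = 0.770). With log2 CPM on total counts, r was 0.898 in knockout libraries (exact permutation test, n = 8, adjusted p = 0.00929) and 0.714 in wild type libraries (adjusted p = 0.0967), and the difference between genotypes was not tested. How far reads of Gnb2 enter the Epo count was not tested.

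Epor, the receptor gene, was close to the floor in both genotypes, with 10 to 29 counts per knockout and 3 to 20 counts per wild type library. Its level ranged from 0.710 through a median of 0.980 to 1.41 CPM in knockout libraries and from 0.288 through 0.882 to 1.93 CPM in wild type libraries. The highest library of all was wild type library 8, no knockout library lay above it, and the log2 fold change was 0.15 (SE 0.265, edgeR, adjusted p = 0.666).

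Levels can be compared between genes per kilobase of annotated exon. In knockout libraries the mean level was 209 CPM per kb for Hbb-bs, 117 for Hba-a1, 45.3 for Hba-a2, 24.5 for Hbb-bt, 7.47 for Epo, 5.79 for Alas2, 0.531 for Epor and 0.383 for Slc4a1. Hbb-bs, Hba-a1 and Hba-a2 each exceeded the next gene in all 8 knockout libraries, although the ranges over libraries overlapped. Hbb-bt exceeded Epo in 7 of 8. Epo lay above Alas2 in 6 of 8 and Epor above Slc4a1 in 5 of 8, so these neighbours were not separated. In wild type libraries the mean level per kb fell from 16.9 for Hbb-bs through 9.89 for Hba-a1 and 6.54 for Epo to 3.61 for Hba-a2, 2.63 for Alas2, 1.78 for Hbb-bt, 0.479 for Epor and 0.0132 for Slc4a1. There Hbb-bs exceeded Hba-a1 in all 8 libraries, while Hba-a1 and Epo, Epo and Hba-a2, and Hba-a2 and Alas2 each kept their order in 5 or 6 of 8.

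Across libraries of 1 genotype, 9 relations between log2 levels were computed in each genotype, and p-values were adjusted over the 18. In knockout libraries, Hbb-bs followed Hba-a1 with r = 0.996 (n = 8, exact permutation p = 2.48e-05, adjusted p = 4.46e-04) and rho = 1 (exact p = 4.96e-05, adjusted p = 8.93e-04). The wild type r was 0.969 (exact p = 1.49e-04, adjusted p = 0.00134, n = 8) and rho 0.976 (exact p = 3.97e-04, adjusted p = 0.00357). Without the 2 libraries farthest from the median of Hbb-bs, r was 0.995 and 0.955, so globins of both chains were high or low in the same libraries.

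The erythroid genes followed Hbb-bs in knockout libraries. For Alas2, r was 0.915 (n = 8, exact permutation p = 0.00159, adjusted p = 0.00714), rho was 0.857 (exact p = 0.0107, adjusted p = 0.0482), and r was 0.852 without the 2 farthest libraries. For Slc4a1, r was 0.945 (n = 8, exact permutation p = 0.00107, adjusted p = 0.00640), rho was 0.881 (exact p = 0.00724, adjusted p = 0.0435), and r was 0.876 without them. Such a relation was not detected in wild type libraries, where r for Alas2 was -0.0322 (exact p = 0.942, adjusted p = 0.995, n = 8) with rho = -0.190 (exact p = 0.665, adjusted p = 0.793). For Slc4a1 in wild type libraries, with its 6 counts, r was 0.562 (exact p = 0.157, adjusted p = 0.365, n = 8) and rho 0.268 (exact p = 0.528, adjusted p = 0.793). The difference between the genotypes in these relations was not tested. Epor ran against Hbb-bs in knockout libraries, with r = -0.811 (n = 8, exact permutation p = 0.0206, adjusted p = 0.0618) and rho = -0.738 (exact p = 0.0458, adjusted p = 0.137), which does not pass after adjustment.

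**Figure D3:**
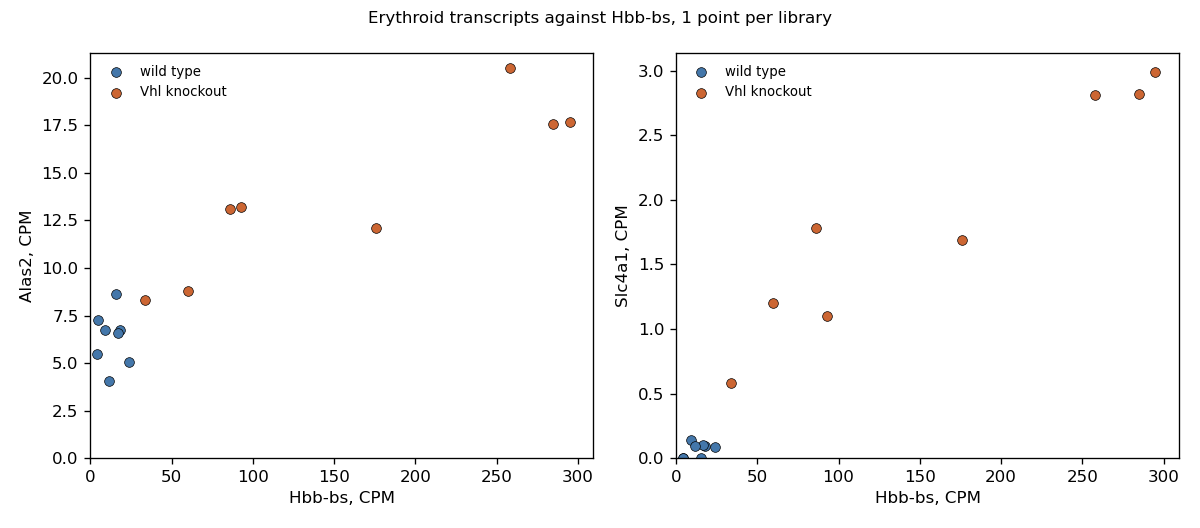
Level of Alas2 and of Slc4a1 against the level of Hbb-bs, in CPM, 1 point per library, with knockout and wild type libraries marked apart. Knockout points rise together (r = 0.915 for Alas2 and 0.945 for Slc4a1 on the log2 scale), and wild type points of Alas2 show no such slope (r = -0.0322).

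After the mean of each genotype was removed, the genes most like Hbb-bs over the 16 libraries were sought among 13416 genes. The first 3 were the other globins, Hba-a1 (r = 0.985), Hba-a2 (0.953) and Hbb-bt (0.953), followed by Trpm7 (0.865) and Slc25a17 (0.831). The 5 genes most like Alas2 were Npat (0.839), Ptrh2 (0.801), Selenoi (0.797), Nxf1 (0.759) and Ints4 (0.738), and no globin was among them. Those most like Epor, out of 13417 genes, were Armc7 (0.847), Rab13 (0.805), Klhl35 (0.768), Tmem202 (0.766) and Gm37939 (0.762). These are the highest of many correlations over libraries that share depth and makeup, given without a test.

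Marker lists of the other cell types a fascicle can hold were read beside the globins. Of 15 endothelial genes 12 were tested, and 10 were past the threshold, all higher in knockout libraries, where 25.6% of all tested genes were. Among the 10, Robo4 and Plvap reached at most 0.199 and 0.702 CPM in wild type libraries. They passed the filter on low counts only through knockout libraries. Pecam1, as low as 0.253 CPM in wild type libraries, also needed knockout libraries to pass it. The count of 10 is therefore set in part by the filter and carries no test. The summed level of all 15 genes was 87.1 to 714 CPM in knockout libraries and 52.9 to 73.2 CPM in wild type libraries, with no overlap. Pecam1, a junction protein of endothelium, rose from 0.867 ± 0.543 to 58.7 ± 52.5 CPM (SD, n = 8; log2 fold change 6.11, edgeR, adjusted p = 1.71e-05). Between knockout libraries the endothelial and globin levels gave a mixed picture. Library 7 had the highest endothelial sum, 714 CPM, and the lowest summed globin level, 68.9 CPM, whereas library 2 had the lowest endothelial sum, 87.1 CPM, and a globin level among the 3 highest. Library 6 went the other way, with the highest globin level, 542 CPM, and an endothelial sum of 459 CPM, above the knockout median of 254 CPM. The correlation of log2 Hbb-bs with log2 Pecam1 in knockout libraries was r = -0.315 (exact permutation p = 0.438, adjusted p = 0.686, n = 8) with rho = -0.143 (exact p = 0.752, adjusted p = 0.793), and r was -0.298 without the 2 farthest libraries. In wild type libraries r was -0.175 (exact p = 0.673, adjusted p = 0.865, n = 8) and rho -0.167 (exact p = 0.703, adjusted p = 0.793).

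**Figure D4:**
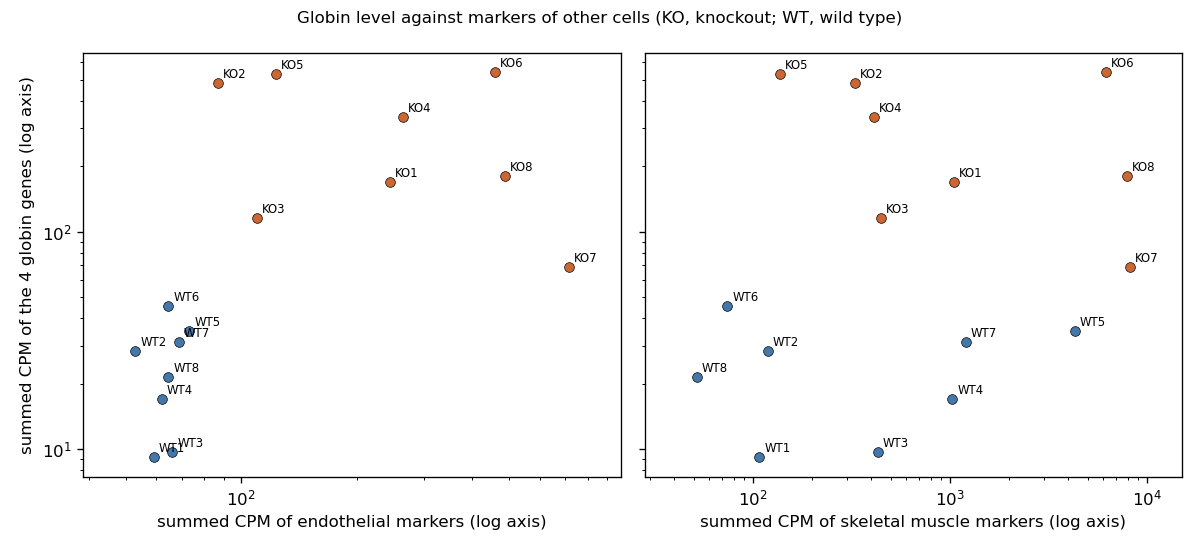
Summed level of the 4 globin genes against the summed level of endothelial markers and of skeletal muscle markers, in CPM on log axes, 1 point per library. Knockout library 7 combines the lowest globin level of its group with the highest endothelial sum (714 CPM) and the highest muscle sum (8213 CPM). Knockout library 6 combines the highest globin level (542 CPM) with an endothelial sum of 459 CPM and a muscle sum of 6190 CPM.

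Markers of other blood cells did not all move the way of the globins. Of 10 platelet genes 5 were tested, with 1 higher and 3 lower, against 25.6% and 22.7% of all tested genes. The summed level of the list was 44.8 to 81.7 CPM in knockout libraries and 66.9 to 102 CPM in wild type libraries. Most of this sum was Pf4, a platelet chemokine, with medians of 38.4 CPM in knockout and 59.5 CPM in wild type libraries. The medians of the sum were 58 and 81.3 CPM. The next most abundant gene, Gp1bb, had medians of 11.6 and 9.15 CPM, so the sum mostly follows Pf4. Gp1bb rose (log2 fold change 0.29, edgeR, adjusted p = 0.0118). Itga2b and Clec1b fell (-0.79 and -1.03, edgeR, adjusted p = 4.95e-04 and 0.0131), and Gp1ba did not pass (-0.08, adjusted p = 0.68). Clec1b did not pass on total counts (-0.78, adjusted p = 0.0618). Ppbp (medians 0.496 and 0.529 CPM) and Gp9 (0.172 and 0.217 CPM) were far lower and not tested. Whether platelet RNA as such fell was not tested. Pf4 fell by 0.55 on the log2 scale (edgeR, adjusted p = 0.00788). It did not pass on total counts (-0.25, adjusted p = 0.190). Neutrophil genes were near the floor, with a summed level of 3.48 to 8.63 CPM in knockout libraries and 1.40 to 2.57 CPM in wild type libraries, without overlap. The largest part of this sum was Csf3r (means 2.82 and 0.794 CPM), the only gene of the list whose groups did not overlap. Csf3r, the receptor for granulocyte colony-stimulating factor and the 1 gene of 11 that was tested, rose by a log2 fold change of 1.81 (edgeR, adjusted p = 1.42e-06), while S100a8 stood at 0.434 CPM in knockout libraries and 0.0509 CPM in wild type libraries. The lymphocyte sum was 1.93 to 4.24 CPM in knockout libraries and 1.25 to 2.47 CPM in wild type libraries, and 5 of its 10 genes were at or below the floor in every library. Its 1 tested gene, Cd4, rose (log2 fold change 0.88, edgeR, adjusted p = 0.0257). Of 10 tested macrophage genes 3 were higher, which is close to the 25.6% of all tested genes. Among them was Lyz2, the lysozyme of myeloid cells (0.41, edgeR, adjusted p = 0.00232). The macrophage sums overlapped, at 1287 to 1912 CPM in knockout and 1178 to 1724 CPM in wild type libraries. The part of blood, vessel and immune cells in the globin difference was not tested.

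Skeletal muscle RNA varied strongly, from 137 to 8213 CPM over 12 summed genes in knockout libraries and from 51.8 to 4295 CPM in wild type libraries. Of the 12 muscle genes, 1 was past the threshold, Myh2 (log2 fold change 2.87, edgeR, adjusted p = 0.0174), where 48.3% of all tested genes were. With a muscle score as a covariate, the log2 fold changes were 3.65 for Hba-a1, 3.95 for Hba-a2, 3.74 for Hbb-bs, 4.00 for Hbb-bt and 1.18 for Alas2, with adjusted p-values of 1.05e-05, 4.70e-06, 2.31e-05, 4.71e-06 and 1.10e-04. Each was at least as large as without it.

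None of the other globins passed the threshold in the edgeR test. Of 9 further genes only Mb, Cygb and Ngb were tested with edgeR, and each of the 3 had an adjusted p above 0.05. An unadjusted p under 0.05 was reached by 2 of them, Mb and Cygb, which also passed the DESeq2 Wald test after adjustment, and limma-voom passed 1, Mb. The embryonic genes Hbb-bh1, Hbb-bh2 and Hbb-y had no count in any library, and Hba-x had 1 count in each genotype. Myoglobin (Mb), the oxygen store of muscle, had a log2 fold change of 2.53 (SE 1.13, edgeR, adjusted p = 0.0777), and on total counts 2.81 (adjusted p = 0.0456). Cytoglobin (Cygb) stood at 124 CPM in knockout libraries and 152 CPM in wild type libraries (log2 fold change -0.30, adjusted p = 0.0583), and passed with DESeq2 size factors (-0.31, adjusted p = 0.0451).

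Counts of genes past the threshold in the pathway lists below are to be read against 25.6% higher and 22.7% lower among all tested genes, and no list was tested as a set. A gene low in wild type libraries could enter these counts through knockout libraries alone. Of 14 haem synthesis genes, all tested and with Alas2 among them, 3 were higher and 1 lower, with a median log2 fold change of -0.06 against 0.02 over all tested genes. On total counts 7 were higher and 0 lower in edgeR. Cpox, coproporphyrinogen oxidase, rose from 12.3 to 20.1 CPM without overlap (0.71, edgeR, adjusted p = 7.74e-06), and Ppox, which acts after it, rose by 0.32 (adjusted p = 0.00118). Fech, which inserts the iron, fell by 0.31 on the log2 scale without overlap (edgeR, adjusted p = 9.07e-05), but stood at -0.01 on total counts (adjusted p = 0.943). Alas1, the housekeeping counterpart of Alas2, had a log2 fold change of -0.16 (adjusted p = 0.0816), which was 0.14 on total counts.

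Genes of the red cell membrane gave 4 higher and 2 lower among 12 tested of 18, against 25.6% and 22.7% of all tested genes, with a median of 0.01. Sptb, a spectrin gene whose product lines the red cell membrane, rose by a log2 fold change of 1.55 (edgeR, adjusted p = 0.00705), with overlap between the groups. Slc2a1, a glucose transporter of red cells and many other cells and a well-known HIF target, had the largest change in the list at 4.39 (adjusted p = 3.22e-15). Dmtn, dematin, which ties spectrin to actin, fell by 1.19 (adjusted p = 2.24e-06) without overlap.

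Late erythroid genes gave 4 higher and 1 lower among 10 tested of 14 found by name, against 25.6% and 22.7% of all tested genes. On total counts 6 were higher and 0 lower in edgeR. Isg20, an RNA exonuclease, rose from 3.48 to 23.2 CPM (log2 fold change 2.74, edgeR, adjusted p = 6.47e-11). Bnip3l, which removes mitochondria from maturing red cells and is also a HIF target, rose by 1.50, and Ube2o, a ubiquitin enzyme of reticulocytes, by 1.36 (adjusted p = 4.19e-10 and 6.90e-12). Groups did not overlap for these 3 genes. These genes are expressed in many tissues, and the median of the list was 0.07.

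Among erythroid transcription factors, 1 was higher and 3 lower of 6 tested of 12, against 25.6% and 22.7% of all tested genes, and on total counts 2 were higher and 2 lower. Gata1, the defining factor of the lineage, stood at 0.0283 CPM in knockout libraries and had no count in wild type libraries, and Klf1 stood at 0.189 and 0.0600 CPM. Neither was tested, and both were at or below the floor in most libraries. Gata2, also not tested, stood at 1.31 ± 1.08 CPM in knockout and 0.0249 CPM in wild type libraries (SD, n = 8). Of the knockout libraries, 7 lay above every wild type library for Gata2. Tal1, a partner of GATA1 in erythroid cells, rose (log2 fold change 0.78, edgeR, adjusted p = 0.0228), and Bcl11a, a repressor of embryonic and fetal globin, fell by 1.87 (adjusted p = 3.98e-07). Zfpm1, the GATA1 partner FOG1, fell by 0.90 (adjusted p = 2.07e-06), and neither of these 2 overlapped between the groups. Ldb1 fell by 0.25 (adjusted p = 0.0235) but stood at 0.05 on total counts. The median of the list was -0.26.

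Erythropoietin signalling, a list of 20 genes that were all tested and include Epo and Epor, gave 9 higher and 2 lower, against 25.6% and 22.7% of all tested genes, with a median of 0.21. On total counts 13 were higher and 1 lower. The kinase gene Jak2 was measured at 62.1 CPM in knockout libraries and 58.0 CPM in wild type libraries (log2 fold change 0.10, edgeR, adjusted p = 0.111), and on total counts at 0.41 (adjusted p = 9.35e-06). Of the STAT5 genes, Stat5a had -0.14 (adjusted p = 0.122) and Stat5b fell by 0.37 (adjusted p = 9.23e-05), which did not pass on total counts (-0.07). Among genes that STAT5 is known to induce, Cish had -0.62 (adjusted p = 0.10), Socs2 fell by 0.84 (adjusted p = 7.64e-05) and Pim1 rose by 0.50 (adjusted p = 3.07e-04). Erfe, the erythroferrone that erythroblasts release under erythropoietin, rose from 3.24 to 7.05 CPM (1.12, adjusted p = 8.27e-07) without overlap. Trib3, a pseudokinase, rose by 3.45 (adjusted p = 3.55e-13), Kit, the receptor of stem cell factor, by 3.44 (adjusted p = 0.00128), and Csf2rb, the shared beta chain of cytokine receptors, by 1.11 (adjusted p = 5.70e-06). Kit ran from 0.85 to 20.5 CPM in knockout libraries and from 0.156 to 2.09 CPM in wild type libraries, with overlap. In 3 wild type libraries it was at or below the floor, so it passed the filter only with knockout libraries. The transferrin receptor Tfrc rose by 1.06 (adjusted p = 6.04e-06).

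The clearance of haemoglobin and haem gave 3 higher and 3 lower among 9 tested of 12, against 25.6% and 22.7% of all tested genes, with a median of -0.24. On total counts 3 were higher and 1 lower. Hmox1, the haem oxygenase that degrades haem and is also induced by stress and by HIF, rose from 14.9 to 73.4 CPM without overlap (log2 fold change 2.30, edgeR, adjusted p = 3.55e-10). Cd163, the macrophage receptor for haptoglobin bound to haemoglobin, rose by 0.38 (adjusted p = 0.0457). It did not pass with DESeq2 size factors (adjusted p = 0.0519). Slc48a1, which carries haem out of lysosomes, fell by 0.50 (adjusted p = 2.17e-05) and Lrp1, a receptor for haem bound to haemopexin, by 0.41 (adjusted p = 0.00960), which was -0.10 on total counts (adjusted p = 0.453).

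**Figure D5:**
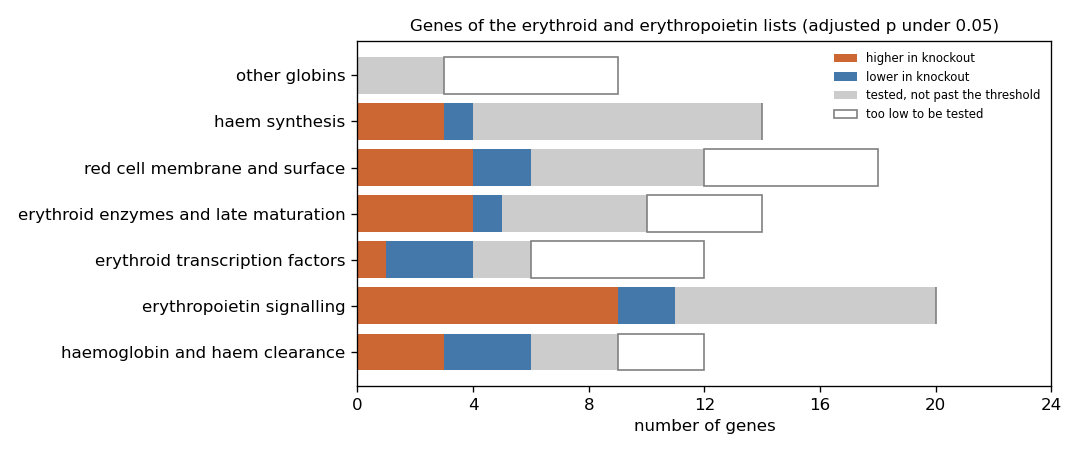
Number of genes in each of the 7 pathway lists that were higher in knockout libraries, lower, or not past an adjusted p of 0.05, and number too low to be tested. The erythropoietin list holds 9 higher and 2 lower of 20, and none of the 3 tested other globins passed.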

How the data were processed

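RNA sequencing libraries of tail tendon fascicles, 8 per genotype, were assigned to a genotype by their titles. The deposited files hold whole-number counts per gene, 1 table per library, which the authors made from their reads. The submitters' processing notes name kallisto, featureCounts and the build GRCm39, without versions or roles, and how counting used strand is not given in the sources used here. Symbols came from a supplied name table, which matched 25614 of 25719 identifiers. The supplied annotation, GENCODE M21, is of GRCm38, another build than the notes name, and was used for exon length, overlap, chromosomes and sequences, which are credited with their own build. No coordinates were converted.

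The test was the two-sided quasi-likelihood test of edgeR 4.0.16 (R 4.3.3) with TMM normalisation, robust dispersions, the default expression filter and genotype as the only term. Benjamini-Hochberg adjustment of p-values ran over 14803 tested genes, which hold 99.7% or more of every library's counts, and 10916 genes were not tested. The fit was tested on simulated data. CPM values use TMM-scaled library sizes, and log2 CPM a prior count of 2. Ratios used 0.5 added to each count. Exact permutation tests went through all assignments or pairings in Python with NumPy 2.4.6, and the smallest p they could give for a difference was 1.55e-04. Ranks and the intervals of shares and rates came from SciPy 1.17.1. No 2 libraries of a genotype had counts that agreed within sampling noise, the lowest chi-square per degree of freedom being 6.56.

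Alternatives were DESeq2 size factors, total counts, TMM without the 20 most abundant genes, library sizes without globin genes, no filter, a mean count of at least 10, DESeq2 1.42.0, limma-voom (limma 3.58.1) with quality weights, a replicate block, dispersions without robust estimation, a skeletal muscle score as a covariate and each library left out.

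The members, the 7 pathway lists and the cell type lists (platelet, neutrophil, lymphocyte, macrophage, endothelial, skeletal muscle and tendon cell) were chosen with earlier results of these data known, and no list was tested as a set. Named beyond the members were, per pathway list, up to 4 genes past the threshold with the largest change and transcription factors or signalling genes whose role is described. Per cell type list these were abundant genes, and for likeness the first 5. Overlapping genes were named too. Alas1, Cygb, Mb, the embryonic globins, Csf3r, Cd4, S100a8, Pf4, Myh2 and Tfrc, where not covered by this, were chosen after their values were seen. So were Ppbp, Gp9, Gp1bb, Gp1ba, Itga2b, Clec1b, Robo4, Plvap and Gata2. A few list genes enter the counts without being named.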

Additional observations from a re-analysis of the deposited data

Results flagged for a closer look

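The log2 ratio of Hbb-bt to Hbb-bs in wild type library 3 was -2.32, far above the next highest wild type library at -3.13. The gap took 0.585 of the range of the 8 libraries, above the critical value of 0.526. The library held 10 counts of Hbb-bt, so the ratio rests on few counts. Without it the difference between the genotypes was 0.17 in place of 0.035. In all, 24 groups of 8 values were examined in this way. Chance flags about 1 in 20 groups, which gives 1.2 of 24.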

How the results depend on the processing

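Over 320 recomputed values of 38 results, 312 kept their direction and their side of the threshold or, for counts of genes, stayed close. The 4 globins and Alas2 kept both in each of 27 alternative fits. Over the settings, log2 fold changes ran from 3.26 to 3.89 for Hba-a1, 3.31 to 3.98 for Hba-a2, 3.29 to 3.96 for Hbb-bs, 3.36 to 4.10 for Hbb-bt and 0.97 to 1.45 for Alas2. Lowest values came from limma-voom and highest from total counts. With libraries left out in turn they ran from 3.38 to 3.72, 3.43 to 3.95, 3.44 to 3.82, 3.57 to 3.96 and 1.04 to 1.22. Epo ran from 0.10 to 0.26 and Epor from 0.02 to 0.36 in the same way, never past the threshold. Epo passed on total counts (0.495, adjusted p = 0.00816), where the median of all genes was 0.32. The ratio of Hbb-bt to Hbb-bs changed sign with 1 added to each count (-0.014) and without wild type replicate 2 (-0.022) or 5 (-0.030), over a range of -0.03 to 0.17. That of Slc4a1 to Hbb-bs ran from 0.43 to 0.85 with libraries left out and passed without wild type replicate 4 (0.848, adjusted p = 0.0395), and was 0.107 with 1 added to each count. The cause of these changes was not tested. Of the other globins, 1 passed on total counts and 1 with DESeq2 size factors, against 0 in edgeR on TMM, and of haem synthesis 7 passed on total counts, all higher, against 4. Between 6585 and 9685 genes passed over the settings. The replicate block gave 7010 genes past the threshold and 3.53 for Hbb-bs (adjusted p = 1.88e-04), 1.11 for Alas2 and 0.19 for Epo, and changed no call of a member. Across genes, replicate numbers did not pair the libraries. The correlations of same-numbered deviations ran from -0.397 to 0.394, and only number 2 matched its own number best. For the globins alone, pairing by number was not tested. Hbb-bs was highest in libraries 6 and 5 of both genotypes. Number 7 differed, being lowest among knockout libraries at 33.8 CPM but above the median in wild type libraries at 16.9 CPM. With the replicate block the standard error was smaller for Hba-a1 (0.319 against 0.472), Hbb-bs (0.401 against 0.529) and Alas2 (0.156 against 0.188). It was larger for Epo (0.16 against 0.148). Counts were lowest for Slc4a1 and Epor, with at most 59 and 29 counts per library.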
